A study of Homo sapiens with 5 samples.

Results

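The core replication-dependent histone genes of METAP1 knockout HAP1 cells were compared with those of their wild type parental cells. METAP1 encodes methionine aminopeptidase 1, which removes the initiator methionine from nascent proteins in the cytosol. The members were every gene whose name in the deposited table begins with HIST, a cluster number and H2A, H2B, H3 or H4, with the linker histone H1 genes left out. They numbered 37 of the 10626 genes in the table: 9 encode H2A, 13 H2B, 6 H3 and 9 H4. GENCODE release 29 holds 65 protein coding genes with such names, so 28 were not analysed here. These comprised 8 H2A, 5 H2B, 9 H3 and 6 H4 genes. By cluster, 29 of the 37 members belong to HIST1 on chromosome 6. Another 5 belong to HIST2 and 2 to HIST3, both on chromosome 1, and HIST4H4 alone to HIST4 on chromosome 12.

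HAP1, a human line with a near-haploid genome, is derived from a chronic myeloid leukaemia line. The 2 knockout libraries came from cells edited with CRISPR/Cas9 to carry a 179 bp insertion in exon 4, with METAP1 given as the knocked-out gene, and the 3 wild type libraries from the unedited parent, both supplied by Horizon and grown in the same medium with serum. The labels describe a single edited line, so the genotype and the line it was isolated in cannot be told apart. The samples are named as biological replicates, but nothing states whether separate cultures were used, so the p-values measure the spread between these libraries. Total RNA was depleted of ribosomal RNA and made into stranded libraries, a preparation that keeps mRNA without a poly(A) tail. The table held 12570051 and 13061232 reads in the knockout libraries, which its columns number 2 and 3, and 13111303 to 16519292 in the wild type libraries. METAP1 itself had 611 and 748 normalized counts (reads scaled to libraries of equal effective size) in the knockout libraries, against 1868, 1932 and 1944 in wild type, a log2 fold change of -1.49 ± 0.115 (SE) with an adjusted p of 9.33e-05 in edgeR. The labels' growth protocol names METAP1D, a mitochondrial relative, for the mutated exon while naming METAP1 as the knocked-out gene. METAP1D had 310.5 and 273 normalized counts in the knockout, against 295, 279.9 and 273 in wild type, and these overlapped. Of 14 haematopoietic markers that bear on the leukaemic origin of the line, 2 were in the table. KIT, a receptor kinase of blood progenitors, had 387 and 364 normalized counts in the knockout, against 258, 255 and 253 in wild type, and was called higher (log2 fold change 0.56, adjusted p 0.0103 in edgeR). GATA2, a transcription factor of the same cells, had 415 and 319.5 in the knockout, against 492, 500.0 and 404 in wild type, and was not called (log2 fold change -0.34, adjusted p 0.137). Any part of these differences in the results below was not tested.

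Histones H2A, H2B, H3 and H4 form the protein core around which DNA is wrapped in the nucleosome, and the replication-dependent genes supply them in bulk while DNA is copied in S phase. These genes lie in clusters as many near-identical copies. Their mRNAs characteristically end in a conserved stem-loop, bound by the stem-loop binding protein SLBP, in place of a poly(A) tail. Promoter elements differ by type: the octamer ATTTGCAT, which POU2F1 (OCT1) recognises, is known from H2B promoters, and an element holding GGTCCG, recognised by HINFP, from H4 promoters.

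The stem-loop is the end that sets these mRNAs apart from polyadenylated ones. Its letters were searched as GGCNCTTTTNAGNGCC in the GENCODE release 29 transcripts, on the transcript strand. It was found in 20 members. The other 17 did not have these letters in any transcript there, the longest of which was 950 bases. Most of these had transcripts shorter than the gene length in the deposited data. The longest was 312 against 372 bases for HIST1H4A and 411 against 472 for HIST1H3B. The end that would hold the stem-loop may thus be missing from the searched sequence, so these members cannot be said to lack it. Among 19684 genes with a protein coding transcript, 34 (0.173%) held the letters, 31 of them HIST-named. Of the forms found, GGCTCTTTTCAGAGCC occurred in 10 members, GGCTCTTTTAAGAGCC in 4, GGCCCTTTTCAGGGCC in 4, and 2 further forms in 1 each. The sites below show every form found and include members with small and large differences between the genotypes. Capitals mark the matched letters.
HIST1H2AC: ccaaaGGCTCTTTTCAGAGCCcccctac
HIST1H2AG: ccaacGGCTCTTTTCAGGGCCacccacg
HIST1H2BF: ccaaaGGCTCTTTTAAGAGCCacccact
HIST1H3H: ccaaaGGCTCTTTTCAGAGCCacccaca
HIST1H4B: ccaatGGCCCTTTTCAGGGCCgcccact
HIST1H4I: aaaaaGGCCCTTTTTAGGGCCcctaagc
HIST4H4: caaaaGGCCCTTTTCAGGGCCcccaaac
HIST1H2AC and HIST1H3H carried the same 16 letters, while their log2 fold changes were -0.99 and -2.15. HIST4H4 and HIST1H4B also shared a form, with -2.17 and -2.01.

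Core histone mRNA was lower in METAP1 knockout cells for every type and every cluster. All 37 members were called lower in the knockout at an adjusted p under 0.05 (edgeR quasi-likelihood F-test, Benjamini-Hochberg over 10620 genes), where 14.8% of all genes tested were called lower. None was called higher by edgeR, where 14.9% of all genes were, and the count was also 0 at an unadjusted p under 0.05, in DESeq2 and in limma-voom. Both knockout libraries lay below all 3 wild type libraries in 37 of 37 members, against 29.2% of all genes. A fall of at least 2-fold that was also called was found in 36 members, against 2.11% of all genes, the exception being HIST1H2AC. The median log2 fold change of the members was -1.57, with a range of -3.16 for HIST1H4A to -0.99 for HIST1H2AC, and the median over all genes was 0.01. Of all genes tested, 58 (0.546%) lay at or below the core histone median. The largest adjusted p among the members was 0.0100, for HIST1H2BE. In bulk RNA, fewer cells in S phase and less histone mRNA per cell cannot be told apart.

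**Figure D1:**
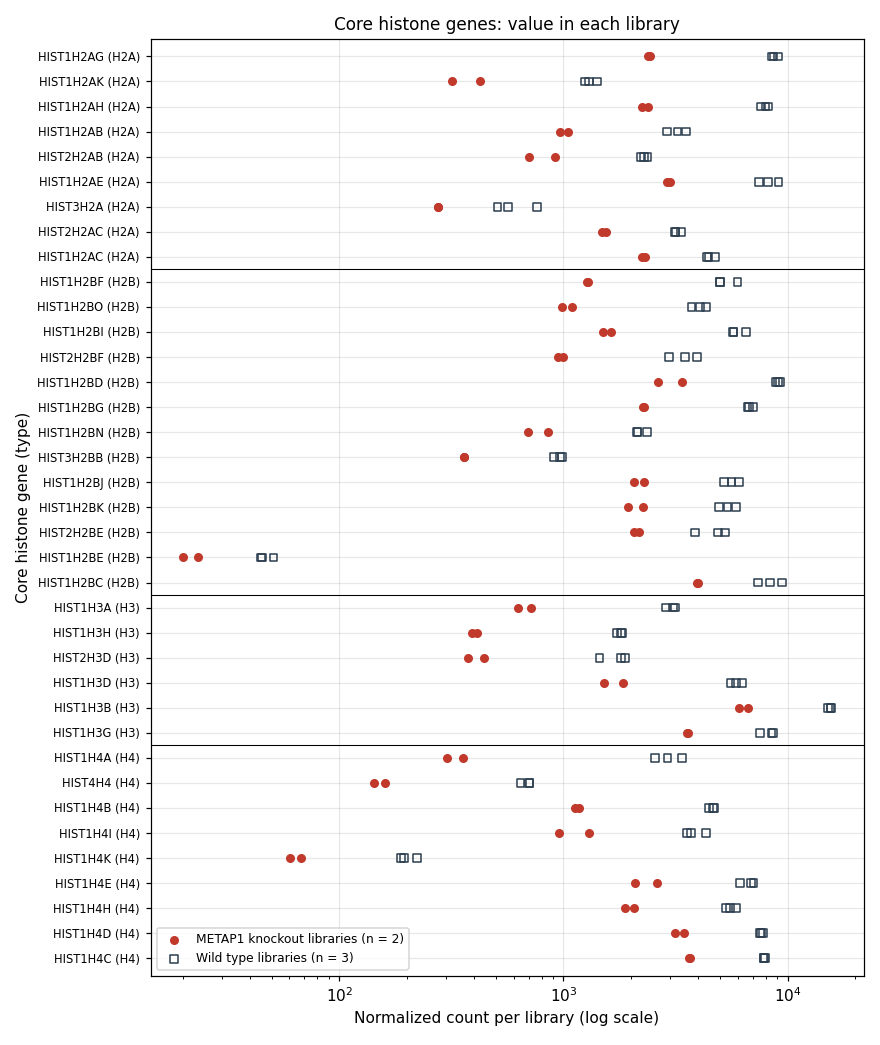
Normalized counts (log scale) of the 37 core histone members in each library, by histone type, with knockout libraries beside wild type libraries. In all 37 members both knockout points lie below the 3 wild type points.

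Taken as one pool, the 37 members held 0.437% (exact 95% binomial interval 0.434 to 0.441) and 0.466% (0.462 to 0.469) of the table's reads in the knockout libraries. In wild type they held 1.25% (1.25 to 1.26), 1.25% (1.25 to 1.26) and 1.29% (1.29 to 1.30). These intervals cover counting error only. The mean share was 0.452% ± 0.0200 (SD, n = 2) in the knockout and 1.27% ± 0.0227 (SD, n = 3) in wild type, and the normalized sum in the knockout was 35.2% of that in wild type. The libraries of the genotypes did not overlap.

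The 4 types fell by closely similar amounts in sum over their measured genes. The knockout sum was 34.7% of wild type for H2A, 35.0% for H2B, 36.3% for H3 and 35.2% for H4. Entered into the whole table as one feature in place of its members, each type had a log2 fold change of -1.53 ± 0.0877 (SE) for H2A, -1.52 ± 0.102 (SE) for H2B, -1.46 ± 0.0882 (SE) for H3 and -1.51 ± 0.0938 (SE) for H4. The 4 values lay within 1 SE of one another. They come from the same 5 libraries, so these SE are not the errors of differences between the types. Their balance per length was also alike: H2A made up 21.4% of the summed core histone counts per kilobase (normalized counts divided by gene length) in the knockout and 21.8% in wild type, H2B 26.4% in the knockout and 27.5% in wild type, H3 26.01% in the knockout and 24.9% in wild type, and H4 26.2% in the knockout and 25.9% in wild type.

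**Figure D2:**
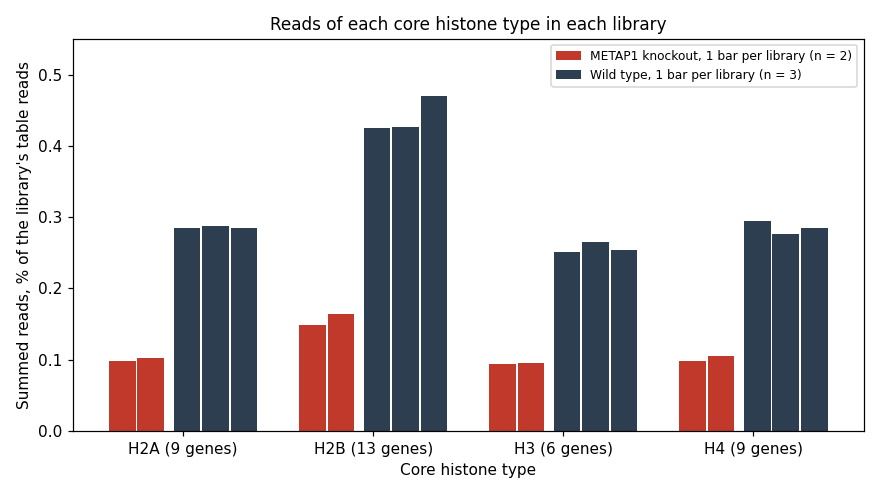
Share of the table's reads held by the summed members of each histone type in each library, knockout to the left of wild type. The knockout sums are 34.7 to 36.3% of the wild type sums after normalization, and no type overlaps between the genotypes.

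H2A forms a dimer with H2B on the outside of the nucleosome core. HIST1H2AG (chr6:27133042-27135291, GRCh38) had the largest fall of the type and the highest wild type count, 2373 and 2427 normalized counts in the knockout libraries, against 9086, 8543 and 8653 in wild type. This was 27.4% of wild type, a log2 fold change of -1.87 ± 0.0920 (SE). HIST1H2AE, the other most abundant H2A gene by reads, had 2889 and 3002 in the knockout, against 7474, 8198 and 9103 in wild type, a log2 fold change of -1.49 ± 0.111 (SE). Both genes thus lay far below wild type in each knockout library. HIST1H2AC (chr6:26124145-26139116), also known to give polyadenylated mRNA in differentiated cells, had the smallest change of all members: 2313 and 2245 in the knockout, against 4388, 4747 and 4442 in wild type, a log2 fold change of -0.99 ± 0.0917 (SE). Even here the highest knockout library stood well below the lowest wild type library. The H2A members ran from 27.4 to 50.4% of wild type, with a median log2 fold change of -1.51, and their adjusted p-values in edgeR ran from 1.33e-05 to 0.00301.

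Among the 13 H2B genes, HIST1H2BF (chr6:26199520-26200715) fell most, with 1275 and 1294 normalized counts in the knockout libraries, against 4984, 4990.4 and 5976 in wild type, a log2 fold change of -2.05 ± 0.117 (SE). HIST1H2BD, the H2B gene with the most reads, had 2632 and 3397 in the knockout, against 9048, 8838 and 9241 in wild type, a log2 fold change of -1.58 ± 0.123 (SE). The knockout libraries differed from each other more for this gene than for HIST1H2BF, yet both stayed below wild type. HIST1H2BC, next in abundance, had the smallest change of the type, 3955 and 3971 in the knockout against 7389, 8344 and 9439 in wild type, a log2 fold change of -1.08 ± 0.118 (SE). The least abundant member of the whole set was HIST1H2BE, with 23.4 and 20.1 in the knockout and 45.1, 44.7 and 51.0 in wild type, a log2 fold change of -1.11 ± 0.237 (SE). This was the least certain fold change of all members: in edgeR its adjusted p was 0.0100, 0.0532 without knockout library 2 and 0.0785 without knockout library 3. The H2B median log2 fold change was -1.51, with members at 24.2 to 47.2% of wild type.

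H3 pairs with H4 to form the central tetramer of the nucleosome. Of the 6 measured genes, the most abundant pair changed least. HIST1H3B (chr6:26031650-26032060), the most abundant core histone gene, had 6068 and 6639.8 normalized counts in the knockout libraries, against 15638, 15531 and 15168 in wild type, a log2 fold change of -1.28 ± 0.0919 (SE). HIST1H3G, the next, had 3589 and 3567 in the knockout, against 7519, 8589 and 8475 in wild type, a log2 fold change of -1.20 ± 0.0988 (SE), the smallest of the type. HIST1H3A (chr6:26020490-26020900), which like the other HIST1 genes of the type encodes H3.1, had 720.0 and 627 in the knockout, against 3073, 2858 and 3152 in wild type, a log2 fold change of -2.17 ± 0.111 (SE). The remaining HIST1 members, HIST1H3H and HIST1H3D, had log2 fold changes of -2.15 and -1.81. HIST2H3D, which encodes H3.2, had 441 and 377 in the knockout and 1889, 1811 and 1449 in wild type, a log2 fold change of -2.07 ± 0.150 (SE). The less abundant genes were thus at 22.2 to 28.5% of wild type, while HIST1H3B and HIST1H3G were at 41.1% and 43.7%. HIST1H3B and HIST1H3G together made up 80.2% ± 2.09 (SD, n = 2) of the H3 counts per kilobase in the knockout and 70.3% ± 0.406 (SD, n = 3) in wild type, with no overlap between the genotypes.

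H4 had the widest spread of fold changes, although its genes all encode the same protein. HIST1H4A (chr6:26021679-26021990) fell most of all 37 members, to 303 and 355 normalized counts in the knockout libraries, against 3373, 2568 and 2912 in wild type, a log2 fold change of -3.16 ± 0.154 (SE). The knockout level was 11.2% of wild type. By contrast, HIST1H4C, the H4 gene with the most reads, had 3618 and 3656 in the knockout, against 7945, 7809.8 and 7830.2 in wild type, a log2 fold change of -1.11 ± 0.0861 (SE). HIST1H4D (chr6:26188765-26189076), the next, had 3439 and 3149.6 in the knockout, against 7616, 7509 and 7750.4 in wild type, a log2 fold change of -1.21 ± 0.0916 (SE). Between these extremes stood HIST1H4B with a log2 fold change of -2.01, HIST1H4I with -1.78, HIST1H4K with -1.65, HIST1H4E with -1.50 and HIST1H4H with -1.49. The interval of 2 SE around the HIST1H4A value overlapped none of those around the other H4 members, while those of HIST1H4C and HIST1H4D overlapped each other.

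The make-up of the measured H4 pool, 9 of 15 annotated genes, therefore differed between the genotypes even though its sum fell like the others. HIST1H4A made up 3.34% ± 0.341 (SD, n = 2) of the H4 counts per kilobase in the knockout and 10.6% ± 1.16 (SD, n = 3) in wild type. HIST1H4B gave 12.1% in the knockout and 17.4% in wild type. In the other direction, HIST1H4C gave 33.1% in the knockout and 25.5% in wild type, and HIST1H4D 33.9% in the knockout and 27.9% in wild type. Together the last pair held 67.0% ± 2.61 (SD, n = 2) in the knockout and 53.4% ± 1.11 (SD, n = 3) in wild type. In H2A and H2B no such concentration was seen in the 2 genes most abundant per length in wild type. In H2A that pair held 48.1% ± 1.16 (SD, n = 2) in the knockout and 51.8% ± 1.97 (SD, n = 3) in wild type. The H2B pair, HIST1H2BG and HIST1H2BI, held 31.4% ± 1.12 (SD, n = 2) in the knockout and 35.1% ± 0.321 (SD, n = 3) in wild type. HIST1H2BI gave 12.2% of H2B in the knockout and 15.8% in wild type. HIST1H2BC, outside that pair, gave 17.8% in the knockout and 12.7% in wild type, so in the knockout it stood above HIST1H2BI. These shares restate the fold changes above on a per-length scale and were not tested.

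**Figure D3:**
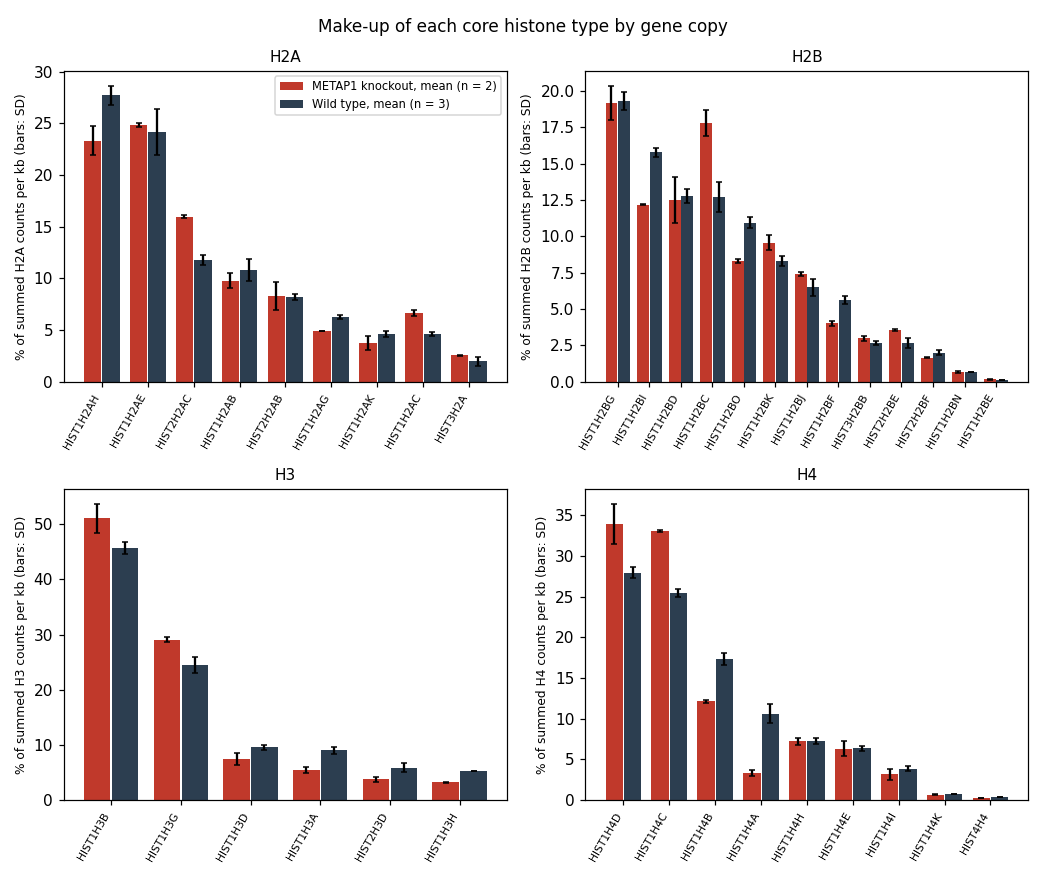
Share of each type's summed normalized counts per kilobase held by each member, knockout mean beside wild type mean, in percent, with SD as error bars. HIST1H4A holds 3.34% of H4 in the knockout and 10.6% in wild type, while HIST1H4C and HIST1H4D hold larger shares in the knockout.

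By cluster, the summed knockout counts were 35.0% of wild type for HIST1, 37.9% for HIST2, 40.7% for HIST3 and 22.2% for HIST4, and in none did the libraries of the genotypes overlap. HIST1 gave 91.0% of the core histone counts per kilobase in the knockout and 91.7% in wild type. HIST2 had a median log2 fold change of -1.51 over its 5 members. Its H2B gene HIST2H2BF had 944 and 996 normalized counts in the knockout libraries, against 3496, 2963 and 3953 in wild type, a log2 fold change of -1.84 ± 0.137 (SE). HIST2H2BE, another H2B gene, had 2055 and 2179 in the knockout, against 3854, 4903 and 5245 in wild type, a log2 fold change of -1.14 ± 0.139 (SE). The H2A genes of the cluster were both lower in each knockout library: HIST2H2AB had 701 and 913 in the knockout against 2216, 2373 and 2289.8 in wild type, a log2 fold change of -1.51 ± 0.128 (SE). HIST2H2AC had 1482 and 1544 in the knockout against 3353, 3160.0 and 3136 in wild type, a log2 fold change of -1.09 ± 0.0933 (SE). All 5 HIST2 genes were below wild type in both knockout libraries. HIST3 was measured through its H2A and H2B genes. HIST3H2A had 277 and 277 in the knockout and 761, 564 and 509 in wild type, a log2 fold change of -1.14 ± 0.184 (SE), with wild type libraries more spread than those of any other member. HIST3H2BB had 362 and 361 in the knockout and 987, 909.7 and 969 in wild type, a log2 fold change of -1.40 ± 0.110 (SE). The lone H4 gene of chromosome 12, HIST4H4 (chr12:14767999-14771131), had 144 and 161 in the knockout, against 705, 643 and 706 in wild type, a log2 fold change of -2.17 ± 0.134 (SE), so a gene outside the large clusters also fell.

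**Figure D4:**
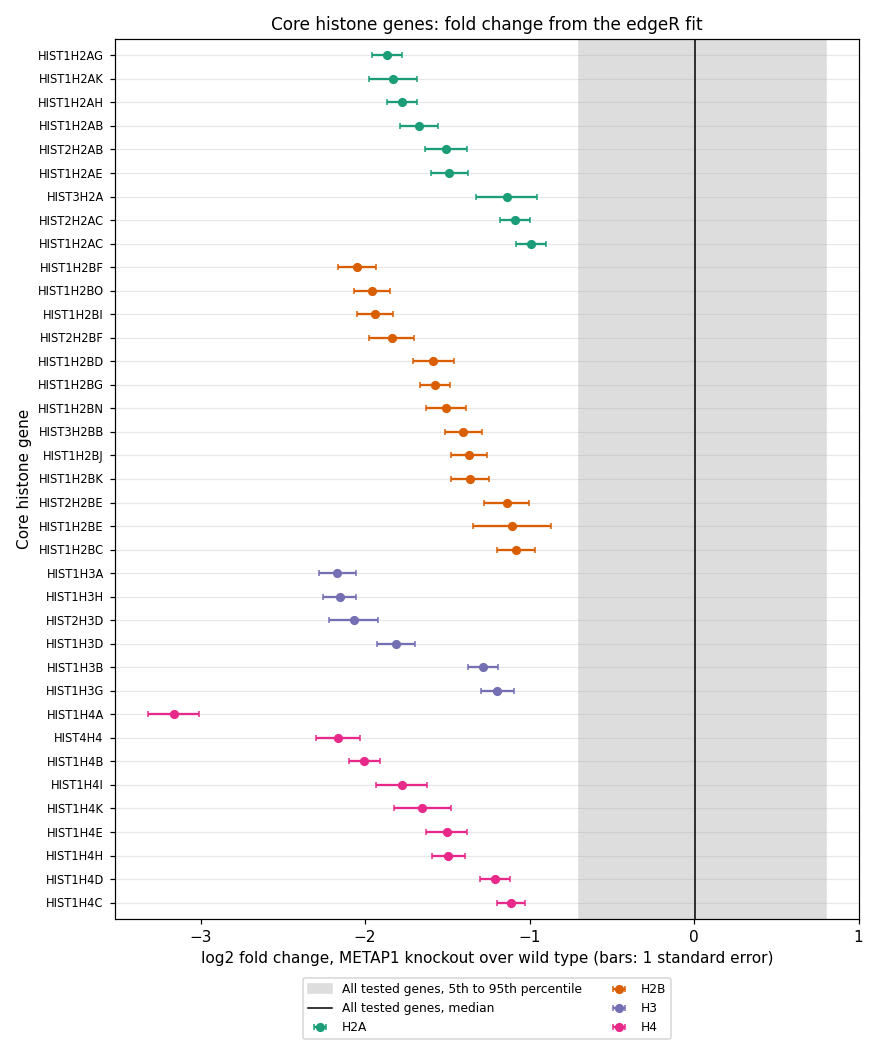
Log2 fold change, knockout over wild type, of each member with its SE, grouped and coloured by type. A grey band shows the central range of all tested genes and a black line their median. Every value lies below 0, from -3.16 for HIST1H4A to -0.99 for HIST1H2AC.

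Along HIST1, which spans chr6:26020490-27893843 (GRCh38) between its outermost measured members, the genes lie in 3 blocks. The median log2 fold change was -1.50 over the 19 members of the first block, -1.78 over the 5 of the second and -1.83 over the 5 of the third. Neighbours differed: HIST1H4A and HIST1H3A, the outermost pair, had -3.16 and -2.17, whereas HIST1H3B, a short way on, had -1.28. Inside the span, 9 genes that are not histone genes were tested, and their median was -0.08. Of these, 0 were called lower by edgeR, against 14.8% of all genes, 2 at an unadjusted p under 0.05 and 0 by DESeq2 or limma-voom. BTN2A1 was called higher by edgeR (log2 fold change 0.51, adjusted p 0.0131), against 14.9% of all genes. Both knockout libraries lay below all wild type libraries in 4 of the 9, against 29.2% of all genes. With 9 genes, the calls cannot be told from these shares.

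**Figure D5:**
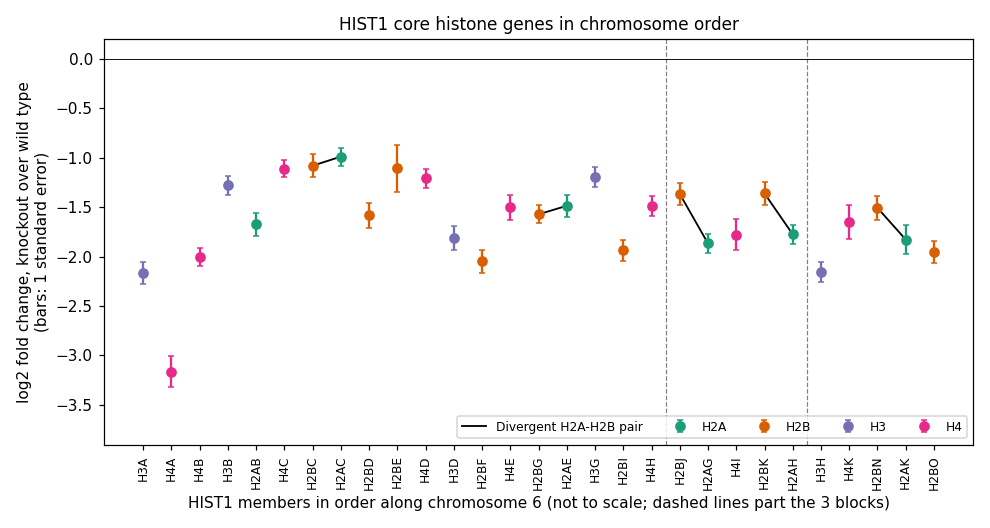
Log2 fold change, knockout over wild type, of the 29 HIST1 members in their order along chromosome 6, with SE and coloured by type, and lines joining divergent H2A and H2B pairs. Members of each type occur at many values, and the 3 blocks have medians of -1.50, -1.78 and -1.83.

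In 6 cases an H2A and an H2B gene start 194 to 248 bases apart on opposite strands with overlapping RefSeq promoter windows. Another pair, HIST1H2AH and HIST1H2BK, lies 331 bases apart by the GENCODE gene ends. The members of 5 of these 7 pairs had log2 fold changes within 2 combined SE of each other. The combined SE treats the 2 values as independent, although they come from the same libraries. How many unpaired H2A and H2B genes lie as close was not counted. The 5 of 7 thus do not show that partners fall together. HIST1H2AC and HIST1H2BC had -0.99 and -1.08, HIST2H2AC and HIST2H2BE -1.09 and -1.14, HIST1H2AE and HIST1H2BG -1.49 and -1.57, and HIST3H2A and HIST3H2BB -1.14 and -1.40. HIST1H2AK and HIST1H2BN had -1.83 and -1.51, but these genes share exon bases with each other, so their values may not be separate. In the 2 pairs beyond 2 combined SE the H2A gene fell more. HIST1H2AG and HIST1H2BJ had -1.87 and -1.37, a gap of 0.50 with a combined SE of 0.141. HIST1H2AH and HIST1H2BK had -1.78 and -1.36, a gap of 0.41 with a combined SE of 0.150, and HIST1H2BK is one of the genes whose reads can be shared with another gene. The stretches shared by the promoter windows of the pair that fell least and of the pair with the largest gap are printed on the plus strand, from the H2B side to the H2A side (RefSeq, GRCh38.p14). Capitals mark any match, on either strand, to the TATA box letters TATAAA, the CCAAT box, the octamer or the H4 promoter letters GGTCCG, and matches may overlap.
HIST1H2BC and HIST1H2AC, chr6:26123922-26124176: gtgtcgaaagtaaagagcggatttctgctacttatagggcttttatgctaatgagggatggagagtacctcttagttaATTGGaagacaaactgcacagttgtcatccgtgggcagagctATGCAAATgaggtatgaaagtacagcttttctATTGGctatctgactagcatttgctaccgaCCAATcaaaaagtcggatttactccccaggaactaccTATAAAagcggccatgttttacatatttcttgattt
HIST1H2BJ and HIST1H2AG, chr6:27132793-27133045: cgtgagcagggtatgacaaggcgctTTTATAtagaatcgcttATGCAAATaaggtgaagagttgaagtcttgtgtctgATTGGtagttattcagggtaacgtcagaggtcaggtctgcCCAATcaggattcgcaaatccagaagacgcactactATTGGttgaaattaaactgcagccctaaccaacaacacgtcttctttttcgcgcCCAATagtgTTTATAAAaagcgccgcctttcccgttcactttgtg

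RefSeq promoter windows, 250 bases before to 50 after the start, were matched for 34 members, all but HIST1H2AH, HIST1H4A and HIST1H4C, and searched for the same 4 motifs on both strands. The octamer was present in 10 of 13 H2B and 6 of 8 H2A windows and in none of the 6 H3 or 7 H4 windows, against 1.77% of all 35116 windows. For HIST1H2AC, HIST1H2AE, HIST1H2AG and HIST2H2AC it is the same site as in the overlapping window of the divergent H2B partner, so it counts for both genes. GGTCCG was present in all 7 H4 windows and in 2 others, those of the divergent pair HIST2H2AC and HIST2H2BE, against 11.3% of all windows. CCAAT was found in 28 member windows, namely all H2A, H2B and H3 windows and 1 of 7 H4 windows, against 34.6% of all windows. TATAAA was found in 23, against 11.5% of all windows. A match anywhere in the window on either strand was taken, so it need not be the gene's own TATA box. For HIST1H2AE and HIST1H2BC the only match lies near the start of the divergent partner. The median log2 fold change was -1.50 over the 16 members with the octamer and -1.62 over the 18 without, and -1.50 over the 9 with GGTCCG and -1.57 over the 25 without. The windows below set H4 and H3 members with large falls beside those with small falls, in the direction of transcription, with the same motifs in capitals.
HIST1H4B (chr6:26027234-26027533, minus strand), log2 fold change -2.01: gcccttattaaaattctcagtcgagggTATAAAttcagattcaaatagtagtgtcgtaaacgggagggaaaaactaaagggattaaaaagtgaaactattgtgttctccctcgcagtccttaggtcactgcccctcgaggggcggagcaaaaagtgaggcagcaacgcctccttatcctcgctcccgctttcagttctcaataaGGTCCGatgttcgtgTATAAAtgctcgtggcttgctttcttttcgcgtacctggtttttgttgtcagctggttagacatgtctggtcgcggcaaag
HIST4H4 (chr12:14771082-14771381, minus strand), log2 fold change -2.17: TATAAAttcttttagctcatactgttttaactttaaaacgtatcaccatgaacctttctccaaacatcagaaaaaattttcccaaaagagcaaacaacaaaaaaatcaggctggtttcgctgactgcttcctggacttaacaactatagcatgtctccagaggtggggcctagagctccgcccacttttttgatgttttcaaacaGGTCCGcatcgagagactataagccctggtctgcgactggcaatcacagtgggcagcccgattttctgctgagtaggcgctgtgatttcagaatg
HIST1H4D (chr6:26189063-26189362, minus strand), log2 fold change -1.21: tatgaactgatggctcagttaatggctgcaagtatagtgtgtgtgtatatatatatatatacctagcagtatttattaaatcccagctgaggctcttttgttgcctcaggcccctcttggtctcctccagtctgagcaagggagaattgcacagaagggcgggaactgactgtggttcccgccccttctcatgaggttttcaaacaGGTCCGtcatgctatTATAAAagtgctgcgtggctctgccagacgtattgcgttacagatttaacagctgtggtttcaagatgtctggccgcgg
HIST1H3A (chr6:26020201-26020500, plus strand), log2 fold change -2.17: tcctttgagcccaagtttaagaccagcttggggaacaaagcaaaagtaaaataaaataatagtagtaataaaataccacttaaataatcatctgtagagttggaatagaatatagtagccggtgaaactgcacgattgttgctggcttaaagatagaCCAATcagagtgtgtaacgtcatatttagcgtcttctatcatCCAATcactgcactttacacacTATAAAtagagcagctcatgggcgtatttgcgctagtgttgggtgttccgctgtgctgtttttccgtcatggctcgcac
HIST1H3B (chr6:26032050-26032349, minus strand), log2 fold change -1.28: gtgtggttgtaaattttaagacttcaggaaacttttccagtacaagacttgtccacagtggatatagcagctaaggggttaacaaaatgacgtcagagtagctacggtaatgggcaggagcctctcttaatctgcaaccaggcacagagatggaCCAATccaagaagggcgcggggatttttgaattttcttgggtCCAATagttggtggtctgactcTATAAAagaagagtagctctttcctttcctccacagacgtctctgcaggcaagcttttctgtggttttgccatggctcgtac
The 3 H4 windows each hold GGTCCG and TATAAA on one strand or the other and no CCAAT. In HIST4H4 the TATAAA opens the window, far before GGTCCG, while in HIST1H4B and HIST1H4D a TATAAA follows GGTCCG closely. Both H3 windows hold CCAAT and TATAAA without the octamer or GGTCCG.

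Because histone genes are near-identical copies, reads could be split between them. Of the 75-base windows of each member's transcripts, the read length used, none was shared with another gene in 22 members. At least 10% were shared in 5 members: all windows of HIST1H4K, 70.3% for HIST2H3D, 50.5% for HIST1H2BK, 23.7% for HIST2H2AC and 19.1% for HIST2H2BF, so their own values are uncertain. HIST1H4A was among the 22. The windows came from GENCODE transcripts, which for many members are shorter than the gene length in the table. The longest was 312 against 372 bases for HIST1H4A and 411 against 865 for HIST1H3D. Part of the counted sequence was thus not checked in such members. The median log2 fold change was -1.62 over the 22 members with no shared window and -1.51 over the other 15. In the annotation 6 members (HIST1H2AK, HIST2H2AB, HIST2H2BF, HIST1H2BN, HIST1H2BE and HIST1H3D) share exon bases with another gene, and no source used here says whether reads were counted by strand. Gene length showed little relation to the fall: Spearman's rho over the 37 members was 0.0557 between length and log2 fold change and 0.0932 between wild type counts per kilobase and log2 fold change, descriptions over genes that share the same 5 libraries. Per-length levels largely kept their order, with a rho of 0.949 between knockout and wild type counts per kilobase. Knockout library 3 was above knockout library 2 in 26 of 37 members, by a median of 0.06 on the log2 scale, far less than the differences between genotypes.

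Genes that act with the core histones were read from lists, against 14.8% of all genes called lower and 14.9% called higher. Of 4 linker histone H1 genes measured, 3 were called lower: HIST1H1D (log2 fold change -2.58), HIST1H1C (-1.08) and HIST1H1E (-0.85). Of replacement histones, which are made outside S phase too, 3 of 8 were called lower and 1 higher, with a median of -0.21. H2AFZ, which encodes H2A.Z, fell (-1.07), H2AFV, its close relative, fell (-0.47, not called when one or the other knockout library was left out), and H2AFY2, encoding a macroH2A, rose (0.81). Among 33 genes for the transcription, 3′ end formation, translation and decay of histone mRNA, 7 were called lower and 1 higher, with a median of -0.06. MIF4GD, a partner of SLBP in histone mRNA translation, fell (-1.16, not called without knockout library 2). SLBP itself had a log2 fold change of -0.43, a call that needed wild type library 3 and both knockout libraries. UPF1, which takes part in histone mRNA decay, rose (0.62). Of 26 histone chaperone and acetylation genes, 7 were called lower and 1 higher, with ASF1B, which delivers H3 and H4 to replicating DNA, at -0.98, HIRIP3 at -0.93 and MCM2, a helicase subunit that binds histones, at -0.80. These counts moved with single libraries. Without wild type library 1, 12 of the histone mRNA list were lower and 3 higher, and 11 of the chaperone list lower and 2 higher. Without wild type library 3, 1 of the histone mRNA list and 3 of the chaperone list were lower. Without knockout library 2 the counts lower were 1 for replacement histones, 0 for the histone mRNA list and 3 for chaperones, and without knockout library 3 they were 1, 1 and 3.

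Of 53 DNA replication genes, 35 were called lower and none higher, and none was higher at an unadjusted p under 0.05, in DESeq2 and in limma-voom, with a median of -0.45. FEN1, the flap endonuclease of Okazaki fragments, had -1.05, and CDC6, an origin licensing factor, had -0.77. The count was 22 without wild type library 3, 17 without knockout library 2 and 19 without knockout library 3. Among 21 genes for S phase entry, 9 were called lower and 2 higher. CCNE2, an E-type cyclin, fell (-0.88), and CCND1, cyclin D1, and CDKN1C, a kinase inhibitor, rose (3.47 and 1.81). The 9 included RB1, CDKN1B and RBL1, which restrain entry, beside cyclins and kinases that promote it. Their number thus gives no direction for entry. Of 41 G2 and mitosis genes, 15 were called lower and 1 higher, with a median of -0.24, HMMR at -1.66, CENPF at -0.60 and KIF11 at -0.58. Counts called lower were 3 in the S phase entry list when one or the other knockout library was left out. In the G2 and mitosis list they were 9 without wild type library 3, 6 without knockout library 2 and 5 without knockout library 3. Whether the fraction of cells in S phase differed between the genotypes was not tested by these data.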

How the data were processed

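Per the labels' protocols, ribosomal RNA was depleted from total RNA of 2 METAP1 knockout and 3 wild type HAP1 samples before stranded library preparation and single-end sequencing with 75-base reads. The submitters' processing notes name STAR 2.4.0i, HTSeq, DESeq2 and the builds GRCh37 and hg19, without their roles. Per the file headers, the deposited table gives raw read counts and RPKM for each library, and from the authors' comparison log2 fold changes, p-values, a test score and a mean signal. In the authors' deposited table all 37 members were lower, by log2 fold changes of -2.99 to -0.83 with a median of -1.48 and adjusted p-values up to 0.0199. The lowest deposited RPKM of a wild type column was 1.00, so genes near 0 in wild type were not analysed here. A core histone gene near 0 in wild type and higher in the knockout could thus be missing from the 37. The knockout columns are numbered 2 and 3 and could not be tied to single sample titles, and 2 per-sample columns, the knockout RPKM, were left unused for that reason.

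The edgeR fit (version 4.0.16, R 4.3.3) used TMM scaling and the robust quasi-likelihood F-test, 2-sided, on all 5 libraries with no covariate, after filterByExpr had left out 6 genes. It had 3 residual degrees of freedom and a common biological coefficient of variation of 11.7%. DESeq2 1.42.0 and limma-voom (limma 3.58.1) were alternatives. The scripts were tested on simulated data. Replicates of a group differed by more than sampling noise. Composition used normalized counts per kilobase of the gene length in the table. Positions and transcripts came from GENCODE release 29 (GRCh38), where 18 members matched by identifier and 19 by symbol, and promoter windows from RefSeq (GRCh38.p14). Depth was 12570051 to 16519292 reads per library, so binomial intervals are narrow and the number of libraries limits the precision.

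The members and all lists were chosen with earlier results of these data known. Named members are the 2 with the highest mean normalized count and those with the largest and smallest log2 fold change in each type, all members of HIST2, HIST3 and HIST4, and any not called. Of each other list at most 3 called genes with the smallest adjusted p were named. HIST1H2BE, other members given by their log2 fold change alone, BTN2A1, RB1, CDKN1B and RBL1 were named after their values were seen. The correlations between same-numbered columns of the genotypes, as deviations from their group mean, were 0.0316 and -0.00254. With 2 knockout libraries these deviations mirror each other, so the values cannot decide whether the numbers pair the samples. The labels state no pairing, and none was used.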

Additional observations from a re-analysis of the deposited data

How the results depend on the processing

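With median-of-ratios size factors, without TMM, with TMM computed without HIST genes, with no filter, in DESeq2, in limma-voom and with the length or GC trend removed, 37 members were called lower and 0 higher. A mean of at least 50 counts removed HIST1H2BE and left 36 of 36 called. Leaving out each library gave 36 to 37 called lower, 0 to 0 called higher and a median log2 fold change of -1.67 to -1.46. The median was -1.37 with the length trend removed. Without TMM the summed H2A share gave -1.51 in place of -1.53. The causes were not tested.

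Leaving out each library, the other lists gave 3 to 3 lower and 0 to 0 higher for linker H1, 1 to 4 and 1 to 1 for replacement histones, 0 to 12 and 1 to 3 for the histone mRNA list, 3 to 11 and 0 to 2 for chaperones, 3 to 12 and 2 to 3 for S phase entry, 17 to 39 and 0 to 0 for DNA replication, and 5 to 22 and 0 to 2 for G2 and mitosis. Leaving out 1 knockout library leaves a lone sample assumed to vary like wild type. Over all genes, calls were 3150, and 1179 without knockout library 2, 1322 without knockout library 3, 1665 without wild type library 3 and 2866 without wild type library 2, against 4591 without wild type library 1. With a replicate block by column number, 37 members were called lower, the largest adjusted p among them was 0.0212 in edgeR, and calls over all genes were 4356. The samples share only a number, and wild type library 1 has no knockout column of its number, so it did not inform these fold changes.

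With 2 knockout libraries of 1 edited line, differences between single histone copies rest on few values, and reads of near-identical copies are uncertain. HIST1H2BE, with the fewest reads, was the least certain call.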
